A study of Mus musculus with 18 samples.

Results

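Genes of the growth hormone, insulin-like growth factor and insulin axis were read against every list of called regions deposited for this study of the nuclear lamina in mouse liver. The 10 genes were Ghr, Igf1, Igfals, Igfbp1, Igfbp2, Igfbp4, Insr, Irs1, Irs2 and Stat5b, of 21938 protein-coding genes in the annotation. They were chosen by name for their role, with earlier results of these data known. Each was given a window made of its gene body and 50 kb on each side. Windows ranged from 104.8 kb for Igfbp1 to 366 kb for Ghr, with a median of 143 kb against 117 kb for all protein-coding genes. ChIP-Seq for lamin B1 and H3K9me3 used livers from male C57BL/6 mice aged 3 months (young) and 21 months (old), with 2 replicates for each antibody and age. Foxa2 was profiled in livers of male mice labelled WT and Zmpste24 KO, also C57BL/6 and aged 12 weeks, with 3 replicates per genotype. The WT animals were control littermates. The KO animals lack Zmpste24, the protease that matures prelamin A, in the whole body and not in the liver alone. Young and old mice carried no mutation, so the age lists and the genotype lists came from different animals, and no Foxa2 list of old liver or lamin B1 list of mutant liver was used here. H3K9me2 was not analysed here.

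Each deposited list gives positions merged over the replicates of a condition, with no signal or score. These lists therefore give no value per replicate, and no comparison below carries a test. Except where stated, gene counts are set beside the share of all protein-coding genes with the same property. The lists held 1624 lamin B1 domains in young and 1519 in old liver, which covered 466 and 930 Mb. They held 2784 and 2496 H3K9me3 regions, and 4960 wild-type and 8177 mutant Foxa2 sites. More reads were aligned for lamin B1 in young than in old liver and for H3K9me3 in old than in young liver, and the part of this depth difference in the results was not tested. Mutant Foxa2 reads were thinned to the wild-type number before calling. The H3K9me3 lists hold fewer regions than the study describes, and the calling step they come from is not given in the sources used here. A gene outside a listed domain is a gene where no domain was called, and liver markers cannot be checked in lists of positions.

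Growth hormone acts on the liver through its receptor (Ghr), which signals through the kinase Jak2 to the transcription factor Stat5b and so drives transcription of Igf1, the circulating growth factor. In blood IGF-I travels bound to IGF-binding proteins and to the acid-labile subunit made by Igfals, while insulin acts on the hepatocyte through its receptor (Insr) and the adaptor proteins Irs1 and Irs2. Igfbp1 and Irs2 are textbook targets of FoxO factors, which insulin holds out of the nucleus, and Foxa2 is a forkhead pioneer factor that opens liver chromatin. Lamin B1 marks chromatin at the nuclear envelope and H3K9me3 is a mark of heterochromatin.

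The sequences below are examples from the Foxa2 results, picked from called sites that hold a forkhead word or a close relative of it. A forkhead word is here TGTTTAC, the core that forkhead factors recognise, searched on both strands and allowing overlap. The first set is the central 300 bases of 3 stretches called in both genotypes, namely both neighbouring sites in the Ghr intron and the site downstream of Irs2 (mm10 coordinates, sequence of GRCm38.p6). Capitals mark 4 words on either strand: TGTTTAC itself, the related TGTTTGC with G before the last base, the related TATTTAC with A as the second base, and the word with each of these changes, TATTTGC. The run of capitals in the first Ghr stretch joins words that overlap. Of the 9 stretches called in both genotypes, the 3 printed are those with at least 2 of these words in the central 300 bases. The others held 1 or 0.
Ghr intron, first stretch, chr15:3489147-3489446, plus strand: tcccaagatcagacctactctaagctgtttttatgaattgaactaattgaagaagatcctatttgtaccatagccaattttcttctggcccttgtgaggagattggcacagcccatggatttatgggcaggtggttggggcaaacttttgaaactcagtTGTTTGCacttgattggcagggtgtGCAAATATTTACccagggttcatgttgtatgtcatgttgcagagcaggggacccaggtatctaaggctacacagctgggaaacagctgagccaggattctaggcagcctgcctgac
Ghr intron, second stretch, chr15:3490938-3491237, plus strand: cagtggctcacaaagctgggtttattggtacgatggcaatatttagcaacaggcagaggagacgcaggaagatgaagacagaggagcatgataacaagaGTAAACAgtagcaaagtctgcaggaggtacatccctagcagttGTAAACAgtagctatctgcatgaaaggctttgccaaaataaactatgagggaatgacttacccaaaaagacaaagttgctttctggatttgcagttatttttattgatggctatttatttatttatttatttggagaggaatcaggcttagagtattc
Irs2 downstream, chr8:10974194-10974493, plus strand: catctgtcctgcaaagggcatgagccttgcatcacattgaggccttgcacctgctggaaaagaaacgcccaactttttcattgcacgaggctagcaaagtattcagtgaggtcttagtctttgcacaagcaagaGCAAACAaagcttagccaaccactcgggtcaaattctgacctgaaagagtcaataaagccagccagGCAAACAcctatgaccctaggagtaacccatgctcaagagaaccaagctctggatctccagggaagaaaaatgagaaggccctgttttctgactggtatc

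The second Ghr stretch held 2 copies of TGTTTAC, here read as GTAAACA on the plus strand. The first Ghr stretch and the Irs2 stretch held related words and no TGTTTAC. The next set lines up the words TGTTTAC found in sites of 1 genotype only, each with 30 bases on either side and in the orientation in which the word reads TGTTTAC, shown in capitals.
Ghr intron, mutant site, first word, chr15:3452043-3452109, plus strand: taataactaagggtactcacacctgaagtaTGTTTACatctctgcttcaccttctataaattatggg
Ghr intron, mutant site, second word, chr15:3452167-3452233, plus strand: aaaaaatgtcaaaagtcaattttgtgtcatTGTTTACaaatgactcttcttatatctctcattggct
Igf1 intron, wild-type site, chr10:87876071-87876137, minus strand: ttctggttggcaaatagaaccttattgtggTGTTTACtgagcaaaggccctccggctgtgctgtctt
Igfals upstream in a Meiob intron, mutant site, chr17:24819546-24819612, minus strand: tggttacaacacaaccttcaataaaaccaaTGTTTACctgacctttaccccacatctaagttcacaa
Igfbp4 intron, wild-type site, chr11:99045833-99045899, minus strand: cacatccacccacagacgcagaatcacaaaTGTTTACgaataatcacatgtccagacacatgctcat
Igfbp4 downstream in a Tns4 intron, mutant site, chr11:99082210-99082276, plus strand: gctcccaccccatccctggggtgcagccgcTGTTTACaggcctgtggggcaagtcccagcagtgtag
Insr intron, wild-type site, chr8:3220202-3220268, minus strand: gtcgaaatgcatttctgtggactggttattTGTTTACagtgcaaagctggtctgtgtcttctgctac
Irs1 intron, mutant site, chr1:82284249-82284315, minus strand: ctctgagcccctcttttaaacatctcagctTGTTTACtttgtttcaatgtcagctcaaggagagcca
Irs2 downstream, wild-type site, chr8:10965451-10965517, plus strand: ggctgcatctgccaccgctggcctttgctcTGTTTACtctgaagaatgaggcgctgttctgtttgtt
Irs2 upstream, wild-type site, first word, chr8:11009409-11009475, plus strand: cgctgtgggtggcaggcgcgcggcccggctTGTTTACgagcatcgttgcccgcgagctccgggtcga
Irs2 upstream, wild-type site, second word, chr8:11010025-11010091, minus strand: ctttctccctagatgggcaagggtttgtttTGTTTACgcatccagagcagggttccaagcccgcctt
Irs2 upstream, mutant site, chr8:11011642-11011708, plus strand: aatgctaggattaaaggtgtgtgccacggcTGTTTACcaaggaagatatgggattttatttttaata
Stat5b intron near its start, mutant site, chr11:100848845-100848911, minus strand: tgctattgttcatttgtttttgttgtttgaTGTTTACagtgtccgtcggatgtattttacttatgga

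Lamin B1 domains covered 3 of the 10 genes in young and 7 in old liver. Across all protein-coding genes a lamin B1 domain touched the window in 44.4% in young and 68.5% in old liver, so the axis genes were at 30% and 70%, the second close to the background. The 10 genes fell into 3 groups. Igfbp4, Insr and Stat5b touched a domain at both ages (3 of 10, against 40.4% of all genes), Igfals, Igfbp1, Igfbp2 and Irs2 touched one in old liver only (4 of 10, against 28.1%), and Ghr, Igf1 and Irs1 touched none at either age (3 of 10, against 27.5%). No axis gene touched a domain in young liver only, which 4.01% of all genes did. The median part of the window covered was 0% in young and 100% in old liver over the 10 genes, and 0% and 98.5% over all genes.

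**Figure D1:**
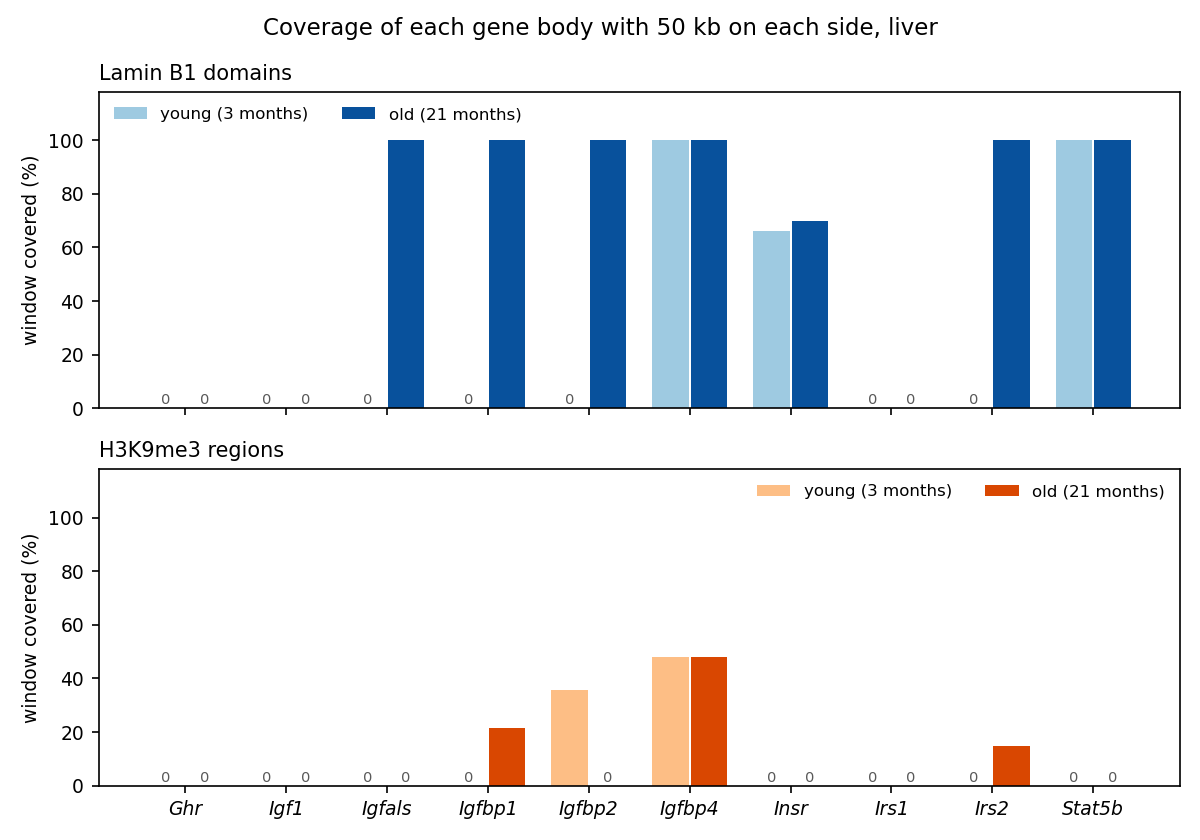
Bars give the percent of each gene's window (gene body with 50 kb on each side) covered by lamin B1 domains (top) and H3K9me3 regions (bottom) in young (3 months, light) and old (21 months, dark) liver, 1 merged list per condition, so there are no error bars; a 0 marks an uncovered window. For lamin B1, Igfals, Igfbp1, Igfbp2 and Irs2 were at 0% in young and 100% in old liver and Insr at 66.0% and 69.7%, and Ghr, Igf1 and Irs1 had no lamin B1 or H3K9me3.

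Igfals, Igfbp1, Igfbp2 and Irs2 (4 of 10) had no lamin B1 in young liver and full cover of the window in old, and 19.1% of all genes did the same. The domains that took them in were of very different size. The one around Igfbp1 was the shortest, from chr11:7040001-7280000, 240 kb, and 36.3% of old domains were shorter still. It held the starts of 4 coding genes, with Gm11985 and Igfbp3, another IGF carrier, on either side of Igfbp1. The one around Igfbp2 spanned chr1:72710001-73280000 (570 kb) and held 4 starts too, among them Igfbp5 next to Igfbp2. No young domain lay inside either of these old domains, and the nearest young domain was 488 kb from Igfbp1 and 394.5 kb from Igfbp2.

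The old domains over Igfals and Irs2 were among the longest of the list. Igfals, which encodes the acid-labile subunit, lay in a domain of 6160 kb at chr17:23920001-30080000, longer than 99.4% of old domains and holding 191 coding starts. In young liver 9 domains overlapped it and covered 40.6% of its length, yet the closest of them was 576 kb from Igfals. Irs2 lay in a domain of 3440 kb at chr8:10360001-13800000 with 37 coding starts, longer than 98.4% of old domains. Young domains covered 11.9% of that length, and the nearest young domain to Irs2 was 2032 kb away.

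Stat5b, Igfbp4 and Insr were covered already in young liver. Stat5b, with its paralog Stat5a beside it, lay in a young domain of 440 kb at chr11:100690001-101130000 (20 coding starts) and in an old one of 3590 kb at chr11:99960001-103550000 (135 coding starts). Igfbp4 lay in a young domain of 280 kb at chr11:98870001-99150000 and an old one of 1320 kb at chr11:98260001-99580000. The old domains of both genes contained the young ones whole. Domains over Stat5a and Stat5b cannot be separated at this scale, as they span both genes.

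Insr, the insulin receptor, differed from Stat5b and Igfbp4 in that 1 border lay within the gene in old liver. Its young domain, chr8:3120001-3290000, was 170 kb long, covered 100% of the gene body and held no other coding start. The old domain, chr8:3150001-3750000, was 600 kb long, held 21 coding starts and covered 82.3% of the gene body, leaving out the 3′ end of the gene. The border at the 3′ end thus differed by 3 windows of the 10 kb grid on which domains are set. On the upstream side the old domain reached past the end of the window, and the part of the window covered was 66.0% in young and 69.7% in old liver.

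Ghr, Igf1 and Irs1, the receptor, the ligand and 1 adaptor, lay outside the domains at both ages. The nearest domain to Ghr was 376.5 kb away in young and 1477 kb away in old liver, and 34.9% and 11.5% of all genes were as far from one. For Igf1 these distances were 203 kb and 263 kb (43.8% and 23.8% of genes as far). For Irs1 the order was the other way, with 2399 kb in young and 279 kb in old liver (8.15% and 23.5% of genes as far).

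**Figure D2:**
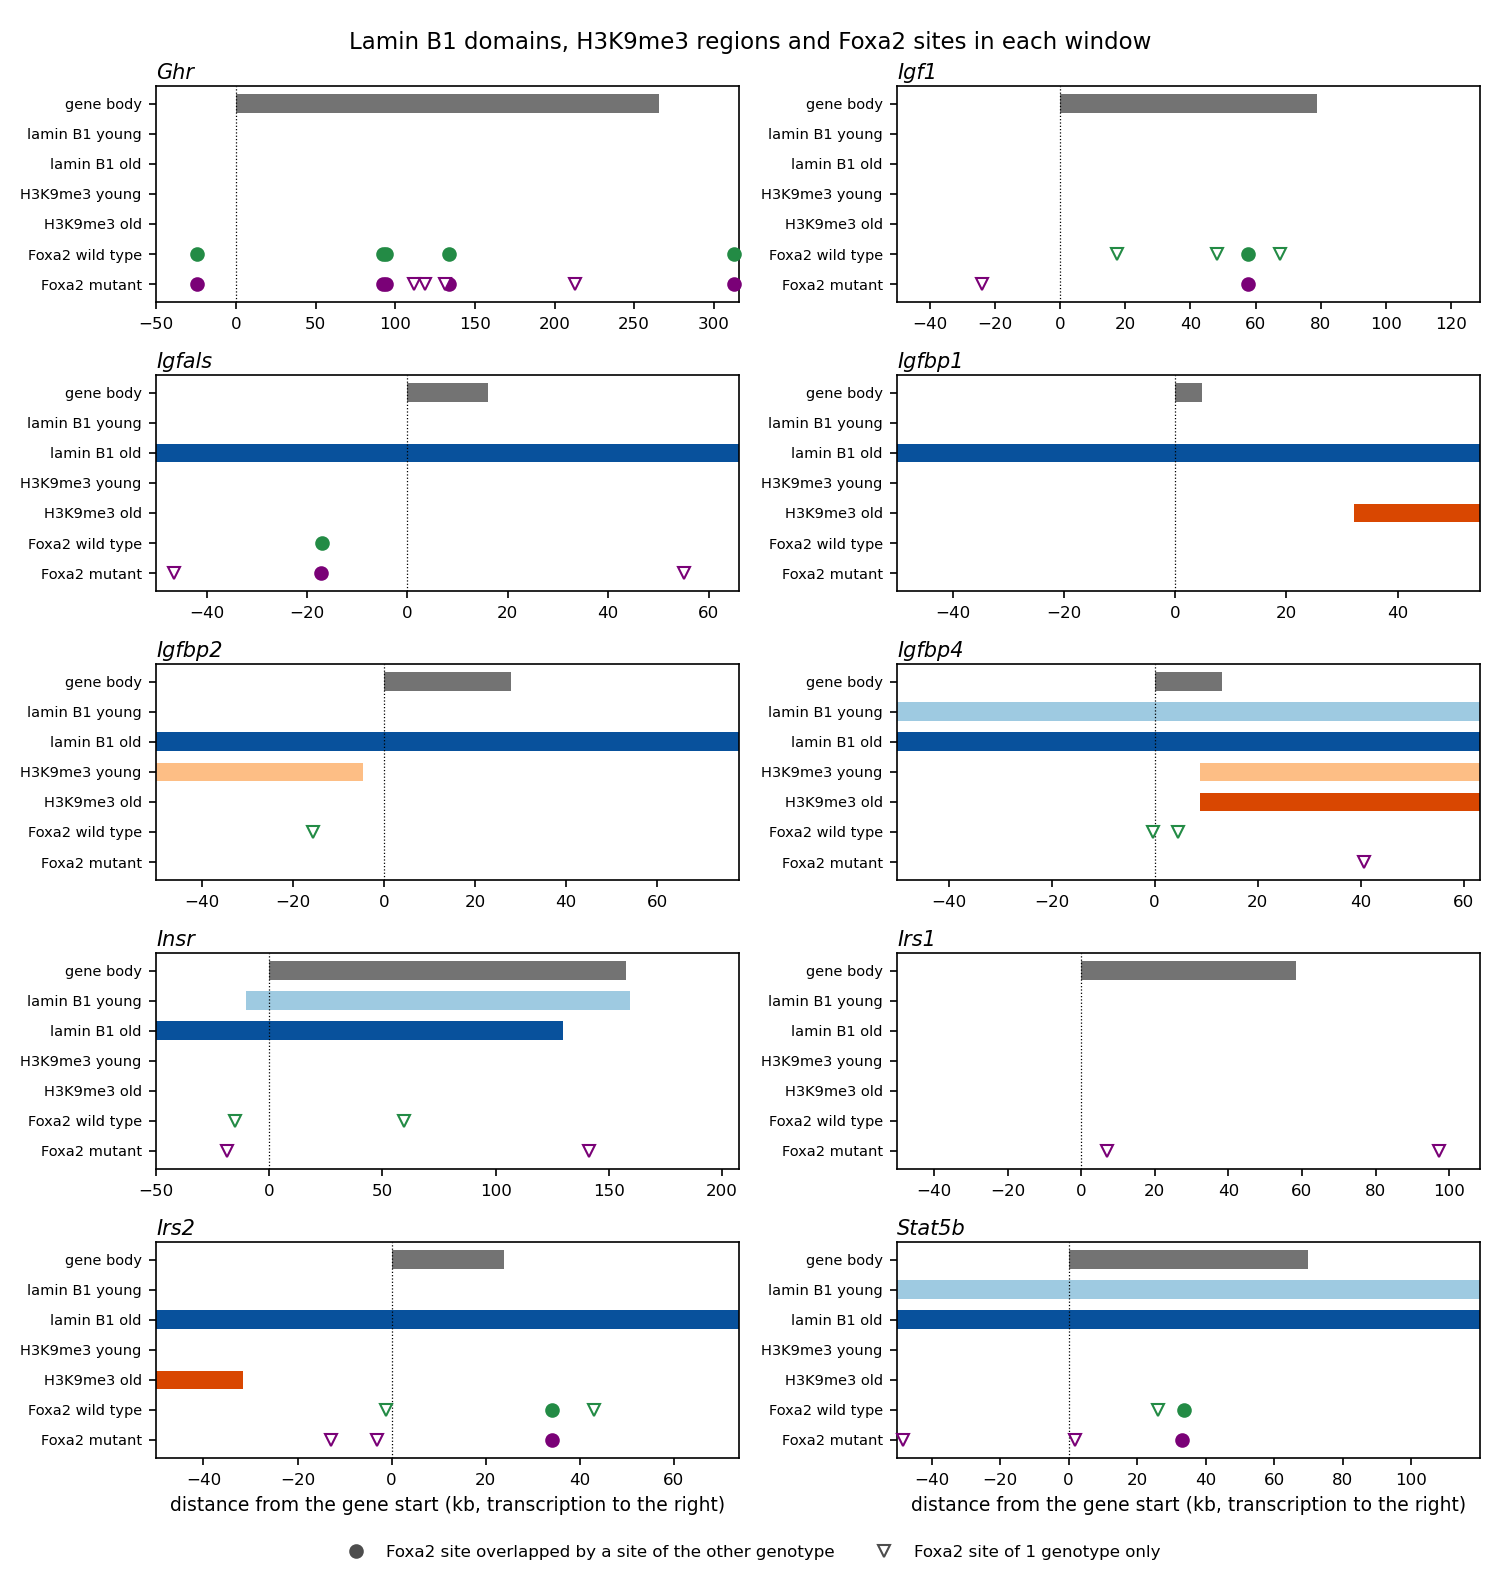
Each panel shows 1 gene with its window, by distance from the gene start in kb with transcription to the right: the gene body (grey), lamin B1 domains (blue) and H3K9me3 regions (orange) in young and old liver, and midpoints of Foxa2 sites in wild-type (green) and mutant (purple) liver, filled where a site of the other genotype overlapped. Ghr, with 5 wild-type and 9 mutant sites, carried no lamin B1 or H3K9me3 bar, and Igfbp1, under an old domain of 240 kb, carried no Foxa2 site.

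H3K9me3 touched the window of 2 axis genes in young and 3 in old liver, against 25.6% and 41.6% of all protein-coding genes. Of the 10 genes 6 (against 50% of all genes) were free of it at both ages, namely Ghr, Igf1, Igfals, Insr, Irs1 and Stat5b. In 3 of the other 4 the mark lay in the flank and not over the gene. Igfbp2 had 35.6% of its window covered in young liver, by a region at chr1:72750001-72820000 (70 kb) that ended 4.50 kb upstream of the gene, and 0% in old liver. Igfbp1 had 0% in young and 21.5% in old liver, from a region of 470 kb that began 27.5 kb beyond the gene (chr11:7230001-7700000). Irs2 had 0% in young and 14.9% in old liver, from a region of 410 kb at chr8:11040001-11450000 that began 31.5 kb upstream of its start.

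Igfbp4 was the only axis gene with H3K9me3 over its body. The region ran from chr11:99050001-99180000 in young and chr11:99050001-99200000 in old liver, and at both ages covered 33.4% of the body, the 3′ part, and 48.1% of the window. Of the 4 genes covered by lamin B1 in old liver only, 2 had H3K9me3 in old liver only (Igfbp1 and Irs2), 1 in young liver only (Igfbp2) and 1 at neither age (Igfals). The share of all genes in each of these joint classes was not computed, so these counts have no background. As the deposited H3K9me3 lists may not be the full set of calls, an absent region here says only that these lists held none.

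For these 4 genes the most similar windows on other chromosomes were sought, by Euclidean distance over the 4 percentages covered (lamin B1 and H3K9me3 at each age). Igfals had 1602 genes at distance 0, with the same pattern of full lamin B1 cover in old liver alone, so no like gene can be singled out. The closest windows to Igfbp1 were those of Arpc5, Gm5678 and Cd6, at distances of 0.00958, 0.1205 and 0.160 percentage points. Those closest to Igfbp2 were Cyp2d10, Gm27027 and Pde8a (0.0914, 0.279 and 0.971), and those closest to Irs2 were Ehd4, Rgsl1 and Tmem245 (0.0384, 0.117 and 0.287). No axis gene had less of its window covered in old than in young liver, so no list was drawn for a loss.

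Foxa2 sites were found in the windows of 8 of the 10 genes in wild-type liver and of 8 in mutant liver, against 30.5% and 38.5% of all protein-coding genes. In either genotype 9 of 10 genes had a site (49.9% of all genes), the exception being Igfbp1. The windows held 20 wild-type and 25 mutant sites, a median of 2 per gene in each genotype against 0 for all genes. Since these windows are longer than most, the sites were also counted per Mb of window, which gave 11.7 in wild-type and 14.6 in mutant liver for the 10 genes. Over all protein-coding genes, whose windows overlap one another, the values were 3.02 and 4.0 per Mb. Over 49 further genes of the pathway they were 5.09 and 5.33. Some of those pathway windows, such as Stat5a, Stat3 and Igfbp5, overlap windows of the axis genes and count some of the same sites.

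**Figure D3:**
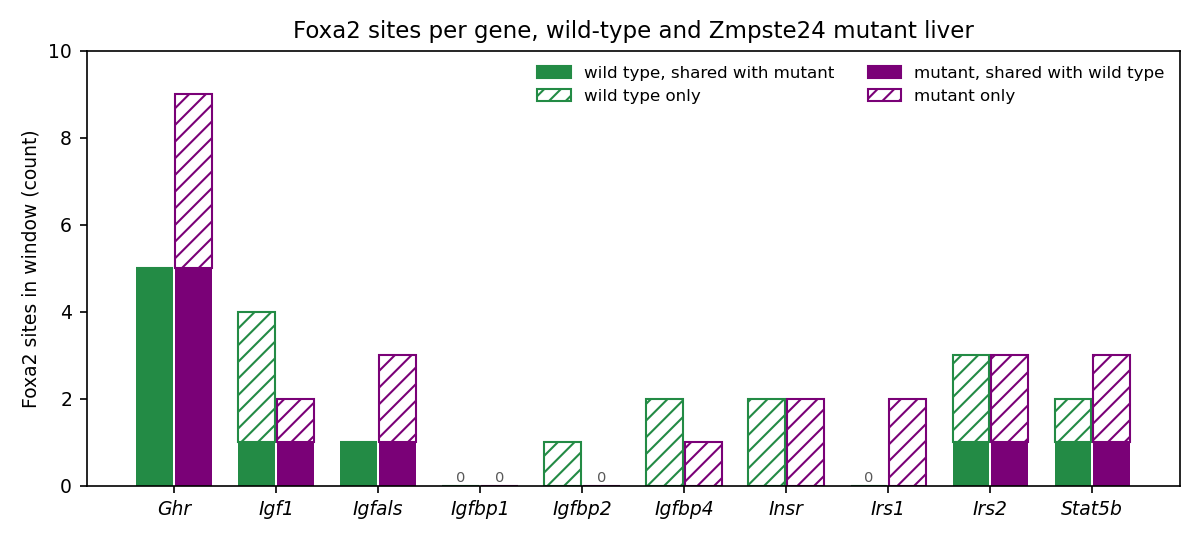
Bars count the Foxa2 sites in each gene's window in wild-type (green) and Zmpste24 mutant (purple) liver, with filled parts for sites overlapped by the other genotype and hatched parts for sites of 1 genotype only (1 merged list per genotype, no error bars). Ghr had 5 and 9 sites with all 5 wild-type sites shared, Igf1 had 4 and 2, and Igfbp1 had 0 in both.

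More mutant than wild-type sites were listed at 4 genes (25% of all genes), namely Ghr, Igfals, Irs1 and Stat5b. Fewer were listed at 3 (15.4% of all genes), namely Igf1, Igfbp2 and Igfbp4. Insr and Irs2 had equal numbers, and Igfbp1 had no site in either genotype. The excess of 5 mutant sites over the 10 windows came mostly from Ghr, since without it the counts were 15 and 16. It also depended on the setting, as the gene bodies alone held 12 sites in each genotype, and the difference reversed to -1 with a flank of 10 kb, with sites assigned to the nearest start and with sites at least as wide as their list's median. For the individual genes a difference of 1 or 2 sites has no replicate check in these merged lists.

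Ghr held the most sites, 5 in wild-type and 9 in mutant liver. At least 5 wild-type sites were found in 0.346% of all windows and at least 9 mutant sites in 0.123%, thresholds that are Ghr's own counts and were set after they were seen. Its window is long, and among the 689 genes with a window at least as long, 2.18% had as many wild-type and 0.871% as many mutant sites. All 5 wild-type sites were also called in the mutant. In introns, 3 of them (chr15:3449601-3449937, chr15:3489120-3489474 and chr15:3490862-3491272) lay 134, 94.2 and 92.4 kb from the gene start, and 1 lay 24.7 kb upstream of the start (chr15:3607907-3608477).

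The fifth shared site in the Ghr window, chr15:3270629-3271130, lay in an exon of Selenop, which encodes the selenium carrier made by the liver, 2.33 kb from the start of Selenop. The start nearest to this site is thus that of Selenop and not that of Ghr. The 4 further mutant sites all lay in the body of Ghr, between 112 and 213 kb from its start. The site at 213 kb was nearer to the start of Ccdc152 (66.95 kb), and 66.2% of its bases are masked as repeats in the reference. One of these 4, at chr15:3451997-3452378, held both copies of TGTTTAC printed above and lay 131 kb from the start, next to the shared site at 134 kb.

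Igf1, the target of the growth hormone signal, showed the opposite count, with 4 wild-type sites and 2 mutant sites. The 4 wild-type sites lay 17.4, 48.2, 57.6 and 67.4 kb from the annotated start, all inside the gene. The one at 57.6 kb, chr10:87915465-87916172, overlapped a mutant site at chr10:87915795-87916189 by 378 bp. The other mutant site lay 23.9 kb upstream (chr10:87833909-87834736). The wild-type site at 17.4 kb held the word TGTTTAC printed above. GENCODE starts Igf1 2.85 kb before the RefSeq start, so the sites inside the gene lie that much closer to the RefSeq start.

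Stat5b, which carries the growth hormone signal to the nucleus, had 2 wild-type sites in its introns, at 33.7 and 26.1 kb from the start. The first of them, chr11:100816474-100817479, was also called in the mutant with an overlap of 686 bp, and the central 300 bases of that overlap held none of the 4 forkhead words, while the whole wild-type site held 1. The mutant had in addition a site 1.92 kb inside the gene (chr11:100848119-100849485), with the word printed above, and a site 48.4 kb upstream in an intron of Stat3. All Stat5b sites of both genotypes lay in chromatin covered by lamin B1 domains at both ages.

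Among the carriers of IGF-I, Igfals had 1 wild-type and 3 mutant sites, all outside the gene. The shared site, chr17:24848753-24849147, lay 17.0 kb upstream in the genes Hagh and Fahd1, 1.41 kb from the start of Fahd1. The mutant sites that were not shared lay in introns of Meiob and Mapk8ip3. GENCODE starts Igfals at least 11.8 kb before the RefSeq starts, so the distances to Igfals are those of the longest gene model. Igfbp2 had 1 wild-type site, 15.5 kb upstream at chr1:72808260-72809736, inside the H3K9me3 region of young liver, and 0 in the mutant.

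Igfbp4 had a wild-type site over its start (chr11:99040006-99041684) and one 4.51 kb inside it, neither of which was called in the mutant. The mutant had 1 site, 40.7 kb downstream in an intron of Tns4. At Irs2 too, the wild-type site nearest the start was not called in the mutant. This site of 1450 bp lay just upstream (chr8:11008888-11010337, midpoint 1.15 kb from the start) and covered the RefSeq promoter. The nearest mutant site, chr8:11011213-11011832, lay 3.06 kb upstream and did not overlap the wild-type site. Among the 14 RefSeq promoters read, of 9 axis genes without Insr, those of Igfbp4 and Irs2 were the only ones touched by a wild-type site. None was touched by a mutant site. The share of all RefSeq promoters touched by each Foxa2 list was not computed, so these counts have no background. The GC content of the 2 wild-type sites, 61.3% at Igfbp4 and 63.2% at Irs2, was the highest among the 20, whose median was 44.25%.

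Irs2 had 2 further wild-type sites downstream, of which the one at chr8:10973965-10974864, 34.0 kb from the start, was shared with the mutant. Insr had 2 sites in each genotype and shared none. Its wild-type sites lay 59.5 kb inside the gene and 15.0 kb upstream, and its mutant sites 141 kb inside and 18.8 kb upstream. The mutant site at 141 kb, chr8:3138014-3138596, lay in the 3′ part of Insr that the lamin B1 domain covered in young liver and not in old. Of the upstream Insr wild-type site, 80.1% of the bases are masked as repeats in the reference, the highest value among the sites of these genes. Irs1 had no wild-type site and 2 mutant ones, at 7.02 kb inside the gene and 97.4 kb from its start in the downstream flank.

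Sites called in both genotypes made up 9 of the 20 wild-type sites (45%, Wilson 95% interval 25.8% to 65.8%, counting error only), against 27.2% of all wild-type sites. Of the 25 mutant sites 36% were shared (20.2% to 55.5%), against 16.7% of all mutant sites. The background value lies inside the interval for the wild type and below it for the mutant. Both intervals treat sites as independent, though 5 of the 9 shared sites were those of the Ghr window. They are therefore too narrow for a verdict. With a reciprocal overlap of 50% 5 wild-type sites were shared. Without Ghr 4 of 15 wild-type and 4 of 16 mutant sites were shared. Shared sites were narrower than the rest, with a median of 502 bp against 1429 bp among wild-type sites, and the same order held over the whole list (680 against 1025 bp).

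The word TGTTTAC occurred in 8 of 20 wild-type sites (40%, interval 21.9% to 61.3%) and in 9 of 25 mutant sites (36%, 20.2% to 55.5%). Over the whole lists it occurred in 27.7% and 23.4%, values inside both intervals. Any of the 4 words, an alternative setting, occurred in 18 of 20 wild-type sites (90%, interval 69.9% to 97.2%), against 62.3% of the whole list. It was 18 of 25 for mutant sites (72%, 52.4% to 85.7%), against 58.8%. These intervals count sites as independent, though several lie in the same window, so they are too narrow for a verdict. In the central 300 bases TGTTTAC occurred in 6 wild-type sites (30%, 14.5% to 51.9%), against 14% of the list, and in 5 mutant sites (20%, 8.86% to 39.1%), against 11.1%. Over the full site, TGTTTAC was present in 3 of the 9 shared sites and 5 of the 11 wild-type sites that were not shared. This was the reverse of the whole list, where 43.7% of shared and 21.7% of other wild-type sites held it. This difference between so few sites was not tested. The GATA word AGATAA occurred in 35% of the wild-type and 60% of the mutant sites (41.7% and 46.4% over the lists), and the STAT word TTCNNNGAA, in which N is any base, in 40% and 36% (28.3% and 28.9%). A match of letters is a description and does not show that a factor was bound there.

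Of the 20 wild-type sites 5 lay in a lamin B1 domain of young liver (25%, against 35.5% of all wild-type sites) and 11 in one of old liver (55%, against 63.5%). Of the 25 mutant sites 5 lay in a young domain (20%, against 28%) and 11 in an old one (44%, against 49.2%). Sites in H3K9me3 were rare, with 1 of 20 wild-type sites in a young region (Igfbp2) and 1 of 25 mutant sites in a region of both ages (the Igfbp4 site in Tns4), against between 19.4% and 22.9% over the lists.

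Igfbp1, with full lamin B1 cover in old liver, was the only axis gene with no Foxa2 site in either genotype. A site in either genotype was listed for 49.9% of all genes. Among the 13 further pathway genes with 0% lamin B1 cover in young and 100% in old liver, most had a Foxa2 site. Only Igfbp3, Igf1r and Tsc2 had none in either genotype, and they are named after their values were seen. The Igfbp3 window overlaps most of that of Igfbp1 and is not a separate observation. The share of all genes with this joint pattern was not computed. The promoter of Igfbp1 is printed beside that of Irs2, which was covered by lamin B1 in old liver only as well but carried the wild-type Foxa2 site. Both are RefSeq promoters of GRCm38.p6, the 250 bases before the start. Capitals mark TGTTTTG or TATTTTG on either strand, the insulin response words through which FoxO factors act, chosen after the Igfbp1 sequence was seen.
Igfbp1 promoter, chr11:7197537-7197786, plus strand: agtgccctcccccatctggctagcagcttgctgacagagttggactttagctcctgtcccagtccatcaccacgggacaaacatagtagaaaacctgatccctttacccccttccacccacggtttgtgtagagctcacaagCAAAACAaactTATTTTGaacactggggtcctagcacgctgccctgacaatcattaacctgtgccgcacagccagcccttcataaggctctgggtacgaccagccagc
Irs2 promoter, chr8:11008930-11009179, minus strand: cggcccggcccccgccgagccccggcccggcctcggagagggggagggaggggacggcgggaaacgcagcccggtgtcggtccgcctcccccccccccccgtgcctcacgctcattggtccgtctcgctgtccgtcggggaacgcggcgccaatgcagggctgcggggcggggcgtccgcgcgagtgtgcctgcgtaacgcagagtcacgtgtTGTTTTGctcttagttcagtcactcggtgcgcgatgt

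The Igfbp1 promoter held 2 such words, which lie 4 bases apart on opposite strands, and the Irs2 promoter held 1. At least 1 occurred in 10.2% and at least 2 in 1.10% of 32851 RefSeq promoters of 300 bases (250 before the start and 50 after). An Irs1 promoter held 2 as well, and the promoters of Ghr, Igf1, Igfals, Igfbp2, Igfbp4 and Stat5b held none. No promoter of Insr was read. The word TGTTTAC occurred in 3.65% of all promoters and in 1 of the 14 promoters read for the axis genes, that of an Igfals transcript.

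The wider pathway was read through 49 further genes of growth hormone, IGF and insulin signalling, a list also drawn up with earlier results known. A lamin B1 domain touched 26 of them in young and 42 in old liver (53.1% and 85.7%, against 44.4% and 68.5% of all genes), and 13 had no cover in young and full cover in old liver (26.5%, against 19.1%). H3K9me3 touched 13 in young and 25 in old liver (26.5% and 51.0%, against 25.6% and 41.6% of all genes). Foxa2 sites were found at 21 in the wild type and 29 in the mutant (42.9% and 59.2%, against 30.5% and 38.5% of all genes), with more mutant sites at 18 and fewer at 14 (36.7% and 28.6%, against 25% and 15.4%). Among the genes with the most Foxa2 sites were Gsk3b, a kinase that insulin restrains (4 and 4), Pappa, a protease of IGF-binding proteins (3 and 3), and Igfbp6 (4 wild-type, 1 mutant), which tied with Stat5a (2 wild-type, 3 mutant) and came before it by name.

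**Figure D4:**
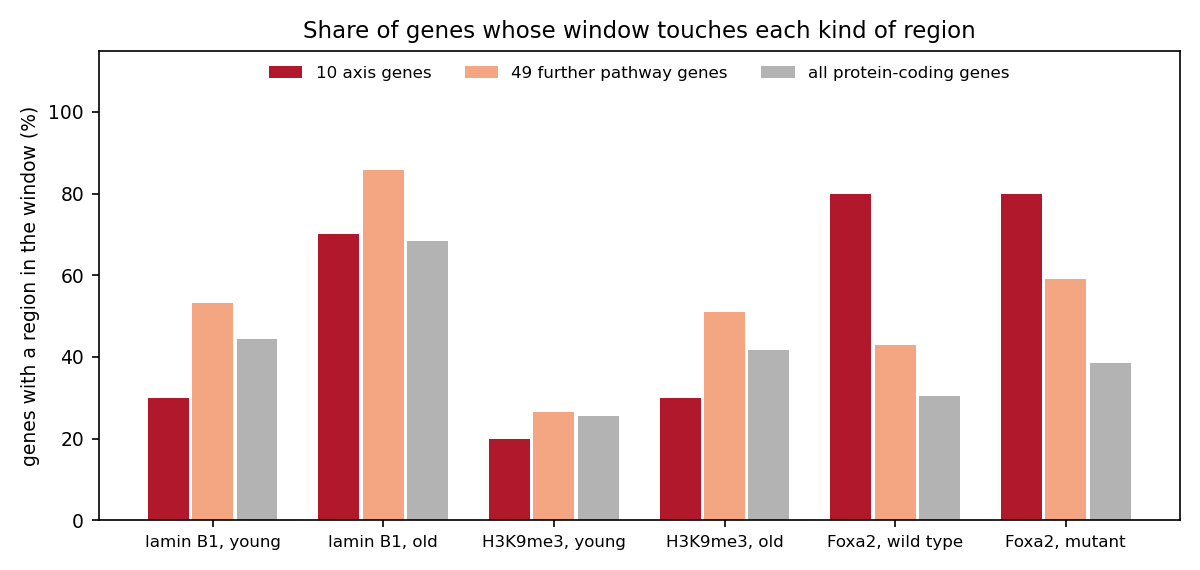
Bars give the percent of genes whose window touched a lamin B1 domain, an H3K9me3 region or a Foxa2 site in each list, for the 10 axis genes (dark red), 49 further pathway genes (light red) and all protein-coding genes (grey). The axis genes were at 80% for Foxa2 in both genotypes against 30.5% and 38.5% of all genes, and at 70% against 68.5% for lamin B1 in old liver.

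In lamin B1 cover 14 of these genes were tied at the largest change, 100 percentage points, and Akt1, Cish and Foxo1 came first by name, all of them at 0% in young and 100% in old liver. Akt1, the kinase below the insulin receptor, also had 0% of its window in H3K9me3 in young and 100% in old liver. Grb14, an adaptor that inhibits the insulin receptor, was the 1 pathway gene with lamin B1 in young liver only (100% and 0%), with 2 wild-type and 0 mutant Foxa2 sites, and is named here after its values were seen. Igfbp3 and Igfbp5 share the old domains of Igfbp1 and Igfbp2, and Stat5a and Stat3 lie beside Stat5b, so these windows overlap and are not separate observations.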

How the data were processed

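Liver ChIP-Seq of lamin B1, H3K9me3 and Foxa2 was read from 6 lists. The lists deposited by the authors hold chromosome, start and end of merged calls, with no other value such as a score or depth. Per the study's methods, reads were aligned to mm10 with BWA, duplicates and reads with several alignments were dropped and replicates merged. Lamin B1 domains were called with Epic in windows of 10 kb, and Foxa2 sites with PeakSeq against input at a set false discovery rate. The methods name no caller for the H3K9me3 regions, and the submitters' processing notes name SICER without a role. Because lists are merged, samples were grouped by antibody and age or genotype from the labels, and no test was made.

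Genes were the protein-coding models of GENCODE vM21 on mm10, each with 50 kb on either side. A region counted at an overlap of at least 1 bp. Sequence came from GRCm38.p6. Wilson intervals are at 95%. Lamin B1 and H3K9me3 ends are the last base counted from 0; coordinates are printed with the first base as 1. Named genes are the 10 members, their neighbours in a domain and 3 like genes for each of Igfbp1, Igfbp2 and Irs2. Genes that hold or lie nearest to Foxa2 sites are named too. Up to 6 pathway genes were picked by most Foxa2 sites or largest lamin B1 change, ties by symbol. Grb14, Igf1r and Tsc2 were added after their values were seen, and Stat5a and Stat3 for a tie or their place beside Stat5b. The members and lists were chosen with earlier results of these data known. Overlap and word code was tested on simulated data. Alternatives were other flanks, cover and length minimums, overlap rules and words. Python 3.11.15, numpy 2.4.6, statsmodels 0.14.6 and matplotlib 3.10.9 were used.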

Additional observations from a re-analysis of the deposited data

How the results depend on the processing

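Of 57 alternatives, 37 left a value unchanged or a count within 1.5 times. Some of these could not change a value. Lamin B1 domains lie at least 40 kb apart, so joining those up to 30 kb apart did nothing. No H3K9me3 region was shorter than 20 kb, so that minimum dropped none. The shortest lamin B1 domain at these genes was 170 kb, so a minimum of 50 kb could not remove one. The counts of genes with lamin B1, 3 in young and 7 in old liver, were unchanged under every flank, cover and length minimum tried, and the median cover moved only with a flank of 100 kb, in old liver, to 94.5%. H3K9me3 was touched by 1 gene in young liver with the gene body alone, and by 1 gene in old liver with the gene body alone or a flank of 10 kb. Foxa2 sites came to 12 in each genotype with the gene body alone (a difference of 0), to 13 in the mutant with a flank of 10 kb, and to 9 in the wild type and 8 in the mutant among sites at least as wide as their list's median. The mutant count minus the wild-type count, 5, reversed to -1 with a flank of 10 kb, with sites assigned to the nearest start, and with the wide sites. Without Ghr, a setting chosen after seeing the data, the mutant count was 16, the difference 1 and the shared wild-type sites 4. Shared sites numbered 5 with a reciprocal overlap of 50%. With 4 forkhead words 18 sites of each genotype held one (62.3% of all wild-type and 58.8% of all mutant sites did), and in the central 300 bases 6 wild-type and 5 mutant sites held TGTTTAC (14% and 11.1% of all sites). The causes of these shifts were not tested. Leaving out single replicates was not possible in merged lists of positions. No paired analysis was possible because the lists carry no replicate number. Depth per replicate is unknown.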
